A study of Equus caballus with 4 samples.

Results

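Genes of the respiratory chain and the ATP synthase were examined in equine satellite cells (ESC), the stem cells of horse muscle, that differentiated in culture with or without β-hydroxy-β-methylbutyrate (HMB), a metabolite of leucine. The genes were found by name, as those listed in the array files under names that begin with NDUFA, NDUFB, NDUFC, NDUFS, NDUFV, UQCR, SDHA to SDHD, COX4 to COX8 or ATP5. This gave 58 genes with 166 probes, out of 24998 names with 43603 probes on the array. Of the 58, 47 encode subunits (30 of complex I, 3 of complex II, 1 of complex IV and 13 of complex V), and 11 share the prefix without being subunits. The files list most genes of complexes III and IV under gene IDs, accessions or other names, so another 29 genes (26 subunits) were identified through these and are marked as such, and complexes III and IV are described with them.

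The cells came from the semitendinosus muscle of healthy 6-month-old stallions and had differentiated for 3 days. HMB-treated cells received 50 µM HMB for 24 h and 3 mM H2O2 during the last 1 h, and the control received the same H2O2 without HMB, so all cells had been exposed to H2O2. Each of 4 horse arrays carried RNA of HMB-treated cells labeled with Cy5 and RNA of control cells labeled with Cy3, and the ratio on an array is 1 replicate. The dyes were never swapped and all arrays lay on 1 slide, so the effects of HMB and of the dye cannot be told apart. All 4 controls carry replicate number 1 in the labels, and the culture with the best scores was selected, so n = 4 need not stand for 4 horses. The p-values then measure only the spread between these arrays, which may be technical.

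Values are log2 ratios of HMB over control after the background subtraction and lowess normalization that the deposited ratios carry. A gene is the mean of its tested probes, which had 1 channel well above background on all 4 arrays. A gene was called at an adjusted p of 0.05 or less (limma, Benjamini-Hochberg over all tested genes) and an FC of 1.3 or more. Of the 43803 spots that were not controls, 57.6% to 60.6% were well above background in Cy3 and 55.2% to 61.8% in Cy5. Any pair of arrays correlated with r between 0.835 and 0.911 across 13968 genes, which are not independent replicates. Among 13978 tested genes, 28.9% were called. With HMB, 12.5% were higher and 16.4% lower.

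The respiratory chain sits in the inner membrane of mitochondria. Complex I and complex II pass electrons from NADH and succinate to coenzyme Q, complex III passes them to cytochrome c and complex IV to oxygen. Complexes I, III and IV pump protons, and the ATP synthase, or complex V, uses the proton gradient to make ATP. Most subunits are encoded in the nucleus, a few core subunits in the mitochondrial DNA, and both sets must be made in step. Myotubes carry more of this machinery than myoblasts and exchange some subunits of complex IV for muscle isoforms.

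Among the 46 tested subunits of the name rule, 10 were called lower and 0 higher, beside 16.4% and 12.5% of all tested genes. At an unadjusted p under 0.05 limma had 30 lower and 0 higher, and the methods' t-test had the same counts. The median of their log2 ratios was -0.26, beside -0.06 for all tested genes. Of the 46, 42 had a ratio below 0 (57.3% of all genes did), and 33 were below 0 on each of the 4 arrays (36.5% of all genes). The median of the subunits was -0.17 on array 1, -0.20 on array 2, -0.35 on array 3 and -0.22 on array 4. The subunits therefore lay below the other genes on every array, by small amounts and furthest on array 3, where 36 of the 46 had their lowest value. Without array 3, 7 subunits were called lower, beside 2214 of 13968 genes, and the median of the subunits was -0.21. An adjusted p of 0.05 or less was reached by 26 of the 46 in limma, and 16 of these had an FC below 1.3. Their FC lay between 1.17 (ATP5G1) and 1.29 (ATP5F1), so the count of calls depends on the FC threshold. The shares of all tested genes that reached the adjusted or the unadjusted p alone are not given here.

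The shift of the subunits against all genes depended on the lowess step, which removes a dye trend along spot brightness. The subunits are among the brightest genes of the array, with a median at percentile 94.8 of brightness and 43 of 46 among the 2796 brightest genes. In that bin the subunits had a median of -0.26 and all genes had -0.05. When the arrays were only centered on their median, without lowess, this bin as a whole moved to 0.10 and its subunits to 0.01. Over all 46 subunits the median was then -0.01, equal to the -0.01 of all genes. Lower calls were made for 2 subunits (NDUFS1 and ATP5C1), beside 2171 of all 13978 tested genes. When background-subtracted signals were scaled to the spike-in RNA, the subunits had -0.69 and all genes -0.68. There, 44 subunits were called lower, beside 11016 of the 13978 genes. With limma's treat, which asks for an FC above 1.3, 0 of the 46 were called (2 at an unadjusted p under 0.05), while the methods' t-test called 10. The spike-in ratios are the centered ratios shifted by a constant, so both show the same position of the subunits among all genes. Against all genes, the median of the subunits was thus lower with lowess or loess normalization and about equal without it. Within the brightest bin the subunits lay below the bin as a whole also without lowess, at 0.01 beside 0.10. The part of the dye in these values was not tested.

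**Figure D1:**
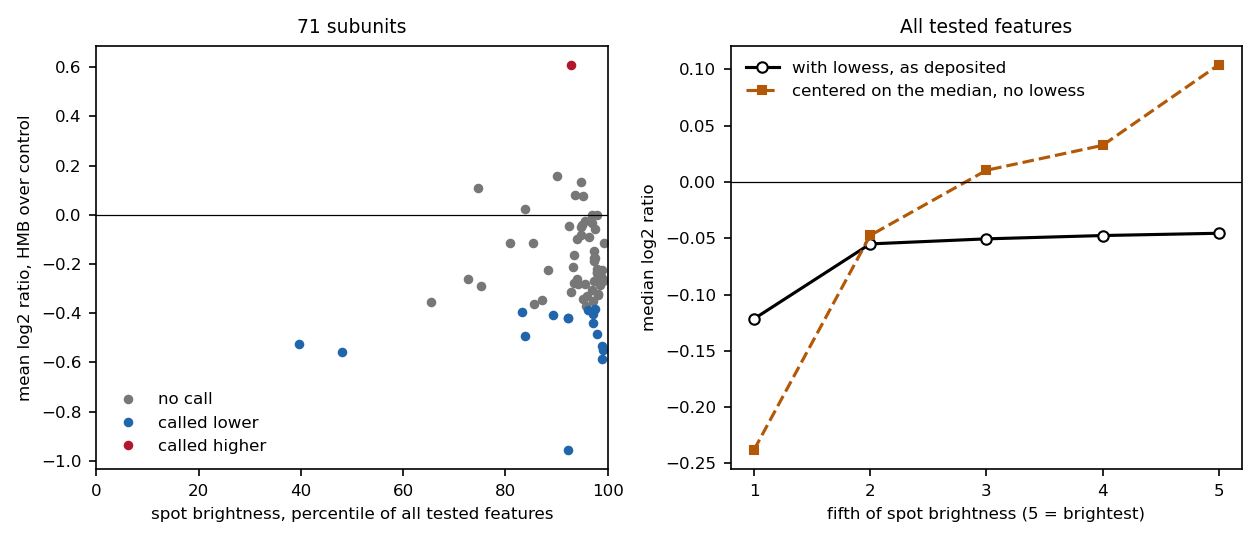
Left, mean log2 ratio over 4 arrays of each of the 71 tested subunits against the brightness of its spots, as a percentile of all tested genes. Right, median log2 ratio of all tested genes in 5 bins of brightness, with the deposited lowess normalization (solid) and with the arrays only centered on their median (dashed), where the line climbs from -0.24 in the dimmest to 0.10 in the brightest bin.

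**Figure D2:**
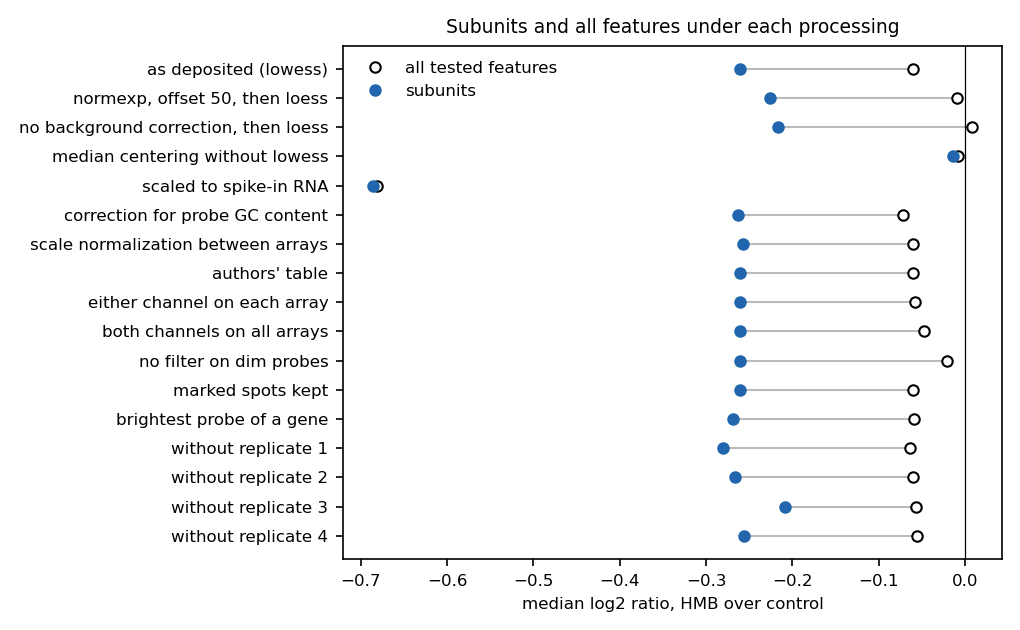
Median log2 ratio of the subunits (filled) and of all tested genes (open) under each processing of the same 4 arrays. The points lie apart wherever a lowess or loess curve was used and coincide at -0.01 and near -0.68 where it was not.

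Markers of the cells present moved as well. Their counts stand beside 16.4% of all tested genes called lower and 12.5% called higher. Of 18 tested markers of myotubes and sarcomeres, 16 were called lower, with a median of -1.02 and a range from -2.21 to -0.03. Of 6 tested markers of satellite cells and myoblasts, 3 were lower (median -0.65, range -1.63 to 0.10), and of 8 fibroblast markers 5 were higher (median 0.59, range -0.18 to 1.82). Among 7 leukocyte markers on the array 3 could be tested and 2 were higher (median 0.47), and 3 were above background on no array. Of 6 endothelial markers, 0 could be tested and 5 were above background on no array. Without lowess the medians were -0.74 for the sarcomere and 0.75 for the fibroblast list, beside -0.01 for all genes. Scaled to spike-in RNA, where all genes had -0.68, the fibroblast list had 0.08 with 2 called higher and the leukocyte list -0.13 with 0 called. Fewer myotubes and less RNA per myotube cannot be told apart in such bulk RNA, and the part of either in the values of the subunits was not tested.

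Complex I oxidizes NADH through a hydrophilic arm that holds the flavin and iron-sulfur clusters and a membrane arm that pumps protons. Of its 30 tested subunits, 6 were called lower and 0 higher, beside 16.4% and 12.5% of all tested genes. Their median was -0.19, with array medians between -0.29 and -0.09. The 7 core subunits of the hydrophilic arm, which carry the electron path, had a median of -0.05 with 2 called lower, and the 23 accessory subunits had -0.26 with 4 called lower. Grouped by position, the median was -0.14 for 8 subunits of the NADH-oxidizing N module, -0.05 for 5 of the Q module and -0.24 for 16 of the membrane arm. Without lowess these medians became -0.02, 0.11 and -0.04.

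NDUFS1, the large iron-sulfur subunit of the N module, had log2 ratios of -0.48, -0.41, -0.57 and -0.51 on arrays 1 to 4. All were well below 0 and close together, and the gene fell by 0.49 ± 0.07 (SD, n = 4; FC 1.41, adjusted p = 0.00147). It was also called lower without lowess (-0.40), but not with treat. NDUFS3, a core subunit of the Q module, had -0.40, -0.43, -0.51 and -0.34 and fell by 0.42 ± 0.07 (FC 1.34, adjusted p = 0.00277). The other core subunits described here were not called. NDUFV1, which binds NADH and the flavin, had ratios from -0.14 to -0.09. Its partner NDUFV2 had 0.11, 0.08, -0.21 and 0.01, which overlap 0. The iron-sulfur subunits NDUFS7 and NDUFS8 had means of 0.02 ± 0.10 and 0.08 ± 0.08, no further from 0 than about their spread, with adjusted p of 0.786 and 0.353 in limma.

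Among accessory subunits, NDUFAB1, the mitochondrial acyl carrier protein, had -0.35, -0.32, -0.64 and -0.63. It fell by 0.48 ± 0.17 (FC 1.40, adjusted p = 0.00463), with a gap between arrays 1 and 2 and arrays 3 and 4. NDUFA10, of the membrane arm, had -0.40, -0.37, -0.48 and -0.41 and fell by 0.42 ± 0.05 (FC 1.34, adjusted p = 0.00244). NDUFB4 had -0.35, -0.36, -0.45 and -0.39, a fall of 0.39 ± 0.04 (FC 1.31, adjusted p = 0.00323). NDUFB3 had -0.27, -0.37, -0.53 and -0.45, a fall of 0.41 ± 0.12 (FC 1.32, adjusted p = 0.00488). These 4 accessory subunits were lower on every array, and none of them was called without lowess, where they had -0.22, -0.30, -0.24 and -0.28 in the same order. NDUFB3 and NDUFB4 were also not called without array 3.

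The remaining 24 complex I subunits of the rule had means from -0.36 (NDUFA2) to 0.16 (NDUFA13). NDUFA13 had 0.16, -0.03, 0.04 and 0.46, so its spread included 0. Of 4 further subunits identified by accession or description, 0 were called, with NDUFC1 at -0.33 and NDUFA3 at 0.13, and with them the median of complex I stayed at -0.19. Expressed sequence tags of NDUFB2 kept under their own accessions had -0.27 and -0.22, next to the -0.21 of the NDUFB2 probes.

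**Figure D3:**
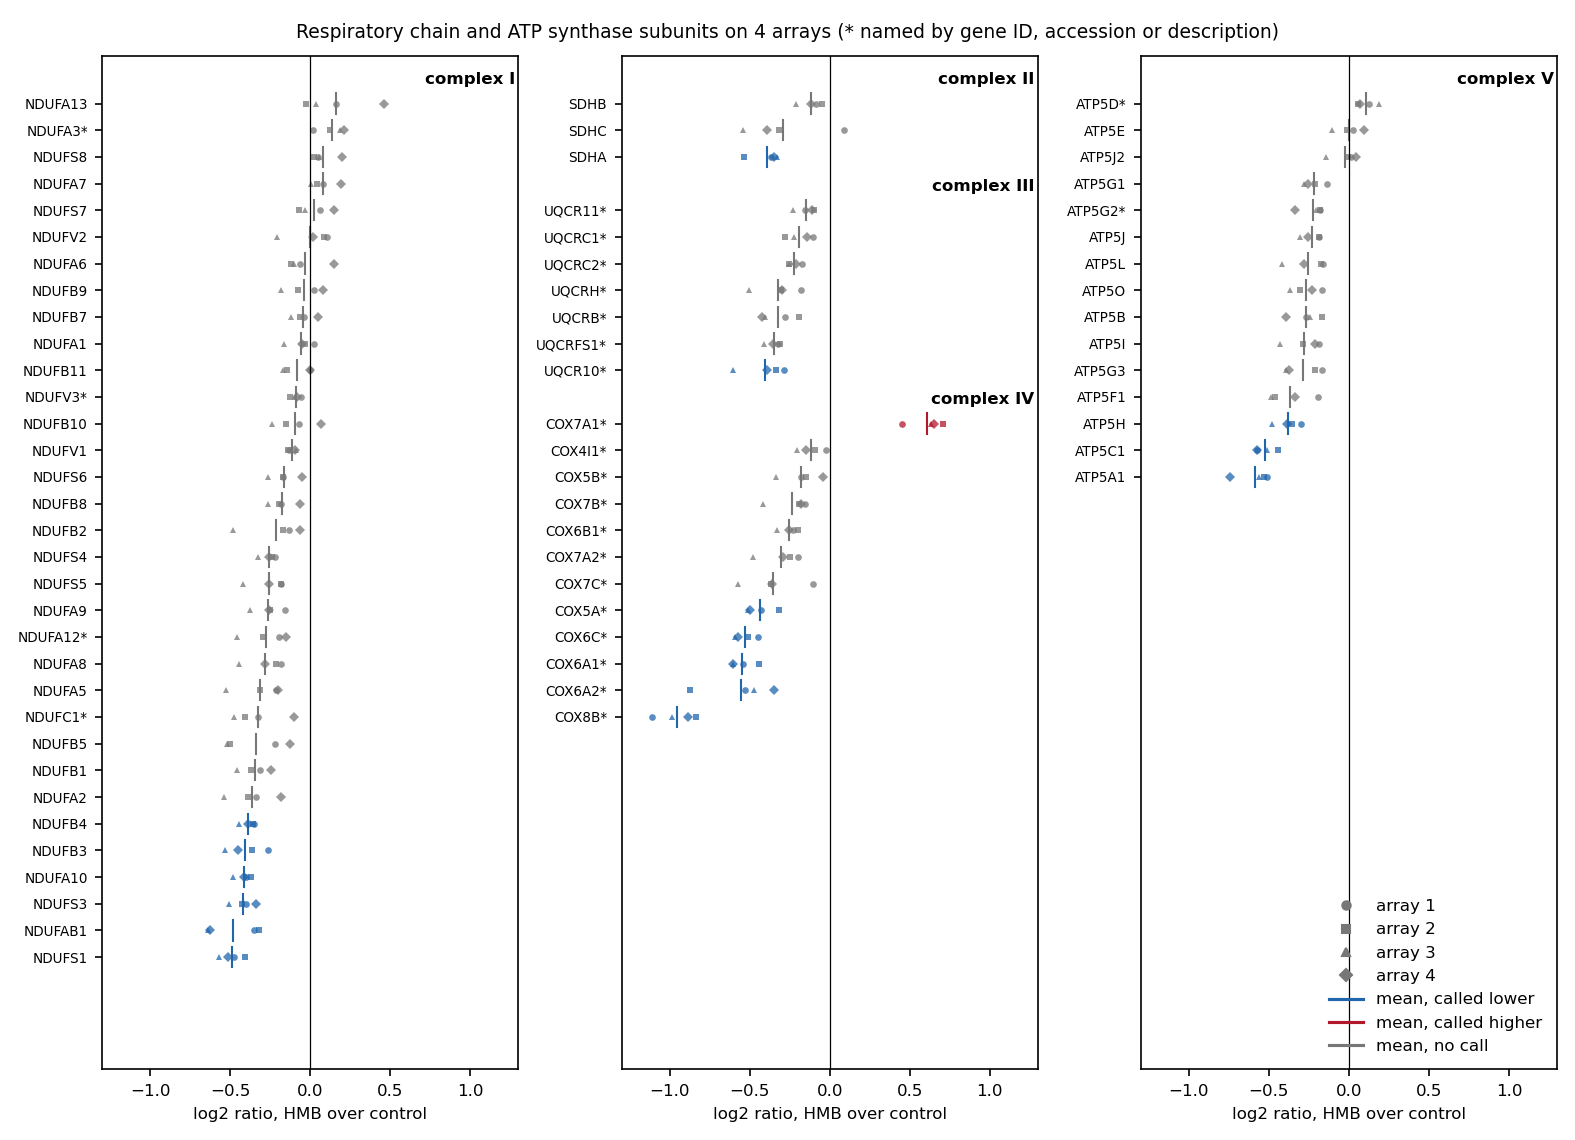
Log2 ratio of HMB over control on each of 4 arrays (symbols) with the mean (bar) for tested subunits of complexes I to V, ordered by mean within each complex. Blue genes were called lower and red genes higher, and asterisks mark subunits that were identified by gene ID, accession or description. COX8B at -0.95 and COX7A1 at 0.61 lie outside the range of the others.

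Complex II, or succinate dehydrogenase, is also an enzyme of the citric acid cycle. SDHA, its flavoprotein, had log2 ratios of -0.36, -0.53, -0.33 and -0.35. It fell by 0.39 ± 0.09 (FC 1.31, adjusted p = 0.00443), and array 2 lay below the other 3, which agreed closely. Without array 2 it was not called. The iron-sulfur subunit SDHB had -0.09, -0.05, -0.21 and -0.12, with an adjusted p of 0.182 in limma. The membrane anchor SDHC had 0.09, -0.32, -0.54 and -0.39, above 0 on array 1 and below it on the others (adjusted p = 0.069). SDHD was not analysed here.

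Complex III was described with 7 subunits that were identified through gene ID or accession. All 7 were below 0 on every array (36.5% of all genes were), and the median was -0.32. Only 1 was called lower, near the 16.4% of all tested genes. UQCR10, a small subunit, had -0.29, -0.34, -0.60 and -0.39 and fell by 0.40 ± 0.14 (FC 1.32, adjusted p = 0.00635). It lost the call without array 3 and without lowess. UQCRFS1, the Rieske iron-sulfur protein, had -0.32, -0.31, -0.41 and -0.35, an FC of 1.27 that stayed under the threshold at an adjusted p of 0.00481 in limma. UQCRH, the hinge protein, had -0.32 ± 0.13 and no call as a gene, although 2 of its 5 probes were called. The core proteins UQCRC1 and UQCRC2 had means of -0.19 ± 0.08 and -0.22 ± 0.04. For UQCRC2 the pair of probes differed, with -0.36 for the probe at the end of the transcript and -0.09 for the probe next to it.

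Complex IV, cytochrome c oxidase, held the extremes of the whole chain. Of its 14 subunits on the array 12 were tested, and the median was -0.33. Calls were lower for 5 and higher for 1, beside 16.4% and 12.5% of all tested genes. COX4I2, the only complex IV gene of the name rule, and COX7B2 were not well above background on all 4 arrays and were not tested. COX8B, a muscle isoform of subunit VIII and a predicted gene in the files, had -1.11, -0.83, -0.99 and -0.89. It fell by 0.95 ± 0.12 (FC 1.94, adjusted p = 0.000174) and was the only called gene of the 22 here that was called under every alternative, with -0.81 without lowess. COX7A1, the heart and muscle isoform of subunit VIIa, had 0.45, 0.71, 0.63 and 0.65. It rose by 0.61 ± 0.11 (FC 1.53, adjusted p = 0.000928), with all arrays far above 0, and was the only subunit called higher. Without lowess it was higher as well (0.74), but scaled to spike-in RNA it had 0.07 and was not called, and treat did not call it.

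COX6A1, the isoform of subunit VIa found in most tissues, had -0.54, -0.44, -0.61 and -0.60 and fell by 0.55 ± 0.08 (FC 1.46, adjusted p = 0.00102). Its muscle counterpart COX6A2 had -0.53, -0.88, -0.47 and -0.35 and fell by 0.56 ± 0.23 (FC 1.47, adjusted p = 0.00485). COX6C had -0.45, -0.51, -0.59 and -0.57, a fall of 0.53 ± 0.06 (FC 1.45, adjusted p = 0.00103). COX5A, a nuclear-encoded subunit on the matrix side, had -0.43, -0.32, -0.51 and -0.50, a fall of 0.44 ± 0.09 (FC 1.35, adjusted p = 0.00277). These 4 were lower on each array, but the processing separated them. Without lowess COX6A2, which the methods' t-test did not call, kept its call at -0.50, while COX6A1 turned to 0.02, COX6C had -0.06 and COX5A -0.25, and these 3 were not called. COX4I1, which takes part in the control of the enzyme by ATP, had -0.12 ± 0.08 and turned to 0.49 without lowess, where it was called higher.

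The muscle and common isoforms did not move as a group. COX7A1 exceeded COX7A2 by 0.91 ± 0.19 (SD, n = 4), with a difference between 0.65 and 1.11 on the 4 arrays and between 0.85 and 1.00 when 1 array was left out or other processing was used. COX7A2 itself had -0.20, -0.25, -0.48 and -0.29, and COX7A2L, a relative that takes part in supercomplexes, had -0.21 ± 0.24. COX6A2 differed from COX6A1 by -0.01 ± 0.30, with values from -0.43 to 0.26 that lie on both sides of 0. COX6A2 lay at percentile 48.1 of brightness, and the difference was -0.52 without lowess. The part of brightness in this was not tested. For the 3 genes of the ATP synthase c subunit, ATP5G1, ATP5G2 and ATP5G3, the means were -0.22, -0.23 and -0.29 and the differences were 0.07 ± 0.06 and 0.06 ± 0.09 against ATP5G3. The smallest p that an exact sign-flip test on 4 arrays allows is 0.125, so that test cannot pass 0.05 here, and no other test of these differences was run. COX8A and NDUFA4, the counterparts of COX8B and NDUFA4L2, were not analysed here.

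The probes behind the outlying complex IV genes are shown, since each rests on few probes. Each is given 5′ to 3′ in lower case, with an in-frame stop codon at its end in capitals, and positions are on EquCab1. The COX8B probe lies at chrUn:293757275-293757334 on the plus strand and ends in the stop codon of its reading frame. The COX6A2 probe spans chr13:5843665-5843834 on the plus strand, 170 positions for 60 bases, and is open in reading frames 1 and 3. The COX7A1 value comes from 2 probes shifted by 3 bases, with 0.59 and 0.63, which are not independent. Exons of the probes are not given in the sources used here.
COX8B: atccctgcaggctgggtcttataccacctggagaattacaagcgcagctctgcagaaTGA
COX6A2: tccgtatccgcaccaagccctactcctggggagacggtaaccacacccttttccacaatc

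Complex V consists of the catalytic F1 head and a membrane rotor with a stalk that holds them together. Of its 13 tested subunits in the rule, 3 were called lower and 0 higher, beside 16.4% and 12.5% of all tested genes. Their median was -0.27. All 13 means were below 0 (57.3% of all genes were), and 11 were below 0 on every array (36.5% of all genes). Without lowess the median turned to 0.05, and scaled to spike-in RNA it was -0.62. An adjusted p of 0.05 or less was reached by 11 of the 13 in limma, most of them at an FC under 1.3. The share of all tested genes at this p is not given here. The 4 subunits of F1 had a median of -0.40 and the 9 of the membrane part and stalk -0.27. The F1 median counts ATP5C1 (-0.52), whose 2 probes differed and were not tested for reading the γ subunit. Its other members were ATP5A1 at -0.59, ATP5B at -0.27 and ATP5E at -0.0007. The medians leave out ATP5D of F1, at 0.11, and ATP5G2 of the membrane part, at -0.23, which were not listed by name. These medians were -0.24 and -0.25 with normexp, and 0.10 and 0.05 without lowess.

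ATP5A1, the α subunit of the catalytic head, had -0.51, -0.53, -0.56 and -0.74. It fell by 0.59 ± 0.11 (FC 1.50, adjusted p = 0.00101), the largest fall among the subunits of the name rule, but had -0.08 without lowess. Its 4 overlapping probes near the end of the transcript had between -0.67 and -0.59 and were called, and a probe further upstream had -0.36. ATP5B, the catalytic β subunit, had -0.27, -0.17, -0.25 and -0.40 over 11 probes, which lay between -0.32 and -0.24. It was not called, at an FC of 1.21 and an adjusted p of 0.0184. ATP5H, a subunit of the stalk, had -0.30, -0.36, -0.48 and -0.39 and fell by 0.38 ± 0.08 (adjusted p = 0.00426), just past the FC threshold, and was not called without array 3. ATP5F1, of the same stalk, had -0.37 ± 0.13 and stayed just under it at an FC of 1.29.

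ATP5C1 is the name of the γ subunit, which forms the central shaft. The gene listed under it had -0.57, -0.44, -0.51 and -0.57 and fell by 0.52 ± 0.06 (FC 1.44, adjusted p = 0.00108). The 2 probes behind this mean differed. The first probe had -0.98, -1.09, -0.73 and -1.19, a mean of -0.998 ± 0.20 (adjusted p = 0.00037 over all tested probes). The second had -0.17, 0.21, -0.29 and 0.05, a mean of -0.05 ± 0.22 (adjusted p = 0.684). They lie side by side on chromosome 29, at chr29:25168485-25168544 and chr29:25168425-25168484 on the minus strand, and start at bases 1430 and 1490 of the same transcript. The second probe ends in a stop codon in its first frame, and that frame is open through the first probe. With 43.3% and 36.7% of bases G or C the probes also differ in composition, and the part of this in the difference was not tested. The call of ATP5C1 thus rests on 1 of 2 probes, and with normexp background correction it was lost. The gene lay at percentile 39.6 of brightness, the lowest of complex V, whose median was 97.9. Whether these probes read the γ subunit was not tested, so ATP5C1 is counted among the subunits called lower by its listed name alone. The probes are printed here with the stop codon in capitals.
ATP5C1, first probe: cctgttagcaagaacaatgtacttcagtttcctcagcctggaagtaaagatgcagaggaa
ATP5C1, second probe: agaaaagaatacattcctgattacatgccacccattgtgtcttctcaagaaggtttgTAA

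At the other end, ATP5E, the ε subunit of the head, had 0.02, -0.01, -0.11 and 0.09, a mean that cannot be told from 0. An expressed sequence tag that matches ATP5E by accession, with 9 probes, had -0.23 ± 0.07 and was not called. ATP5D, the δ subunit, identified by gene ID, was above 0 on all arrays at 0.11 ± 0.06, without a call. With the 2 further subunits identified this way the median of complex V was -0.27.

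Probes of a gene mostly agreed. Of 54 tested genes with more than 1 tested probe, 44 had probes in 1 window of the genome, so these probes overlap and repeat each other. The median range between probes of a gene was 0.06. In 10 genes some probes were called and others not, among them 7 called genes (ATP5A1, ATP5C1, ATP5H, ATP5S, NDUFA10, NDUFAF7 and NDUFB4) and the uncalled ATP5F1, NDUFA2 and UQCRH. A range above 0.2 was found in 6 genes, and the widest was the 0.95 of ATP5C1.

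Compared with each other, the complexes overlapped. Their medians were -0.19 for complex I, -0.29 for II, -0.32 for III, -0.33 for IV and -0.27 for V. The median of complex V lay below that of complex I on each of the 4 arrays, as did those of complexes III and IV. Complex II, with 3 genes, had -0.09 on array 1 and between -0.35 and -0.32 on the others. The array medians of complex I, from -0.29 to -0.09, overlapped those of complexes III (-0.40 to -0.18), IV (-0.47 to -0.21) and V (-0.39 to -0.19). Without lowess the order changed, to -0.02, -0.20, -0.01, -0.02 and 0.05 for I to V, so the order of the 5 medians differed. Complexes II and IV lay below complex I, complexes II, III and IV below V, and IV below III, in both. Without lowess IV differed little from I and III, at -0.018 beside -0.017 and -0.0065.

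**Figure D4:**
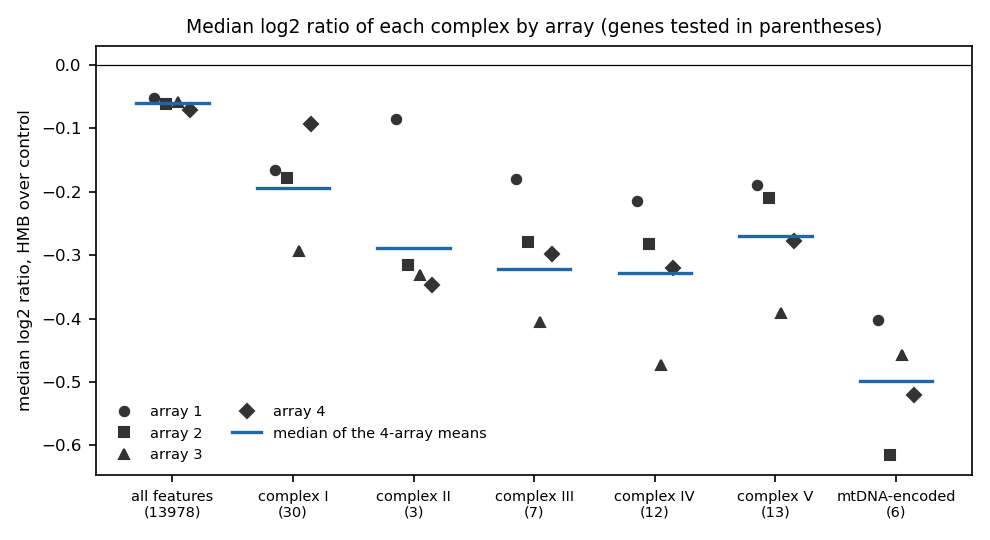
Median log2 ratio of each complex on each of 4 arrays (symbols) and median of the means over the arrays (bar), beside all tested genes and the subunits encoded in mitochondrial DNA, with the number of genes in parentheses. All complexes lie below all tested genes, complexes I, III, IV and V reach their lowest value on array 3, and their ranges overlap.

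Of the 11 genes that share the prefix without being subunits, 4 were called lower and 1 higher, beside 16.4% and 12.5% of all tested genes. NDUFA4L2, a relative of the complex IV subunit NDUFA4 that is known to be induced in hypoxia, had 0.55, 0.84, 1.35 and 1.11. It rose by 0.96 ± 0.34 (FC 1.95, adjusted p = 0.00186), more than any other gene of the name rule, on all arrays and over a wide range. The rise was 0.97 without lowess, treat called it too, and scaled to spike-in RNA it had 0.30 and was not called. Its single probe spans chr6:71861963-71862130 on the minus strand and ends, in capitals, in the stop codon of its reading frame.
NDUFA4L2: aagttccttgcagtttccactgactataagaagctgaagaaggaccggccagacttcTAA

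The NDUFAF genes encode assembly factors, which help to build complex I and leave it when it is complete. All 7 tested had means below 0, with a median of -0.28, and 3 were called lower, beside 16.4% of all tested genes. NDUFAF6 had -0.41, -0.40, -0.82 and -0.45 and fell by 0.52 ± 0.20 (FC 1.43, adjusted p = 0.00487). NDUFAF5, which modifies NDUFS7, had -0.23, -0.41, -0.82 and -0.25 and fell by 0.43 ± 0.28 (FC 1.35, adjusted p = 0.0207). NDUFAF7, a methyltransferase, had -0.26, -0.42, -0.62 and -0.25 and fell by 0.38 ± 0.17 (FC 1.31, adjusted p = 0.011). Array 3 was the lowest for each of the 3, and NDUFAF5 and NDUFAF7 were called neither without array 3 nor without array 2. Across the alternatives NDUFAF5 lost its call in 8 and NDUFAF7 in 9, among them median centering and the methods' t-test. NDUFAF6 kept its call without lowess at -0.46. ATP5S, also called factor B of the ATP synthase, had -0.37, -0.77, -0.61 and -0.18, a fall of 0.48 ± 0.26 (FC 1.40, adjusted p = 0.0118). It lost its call in 7 alternatives, among them without array 3, with normexp, with treat and in the methods' t-test. The assembly factor SDHAF2 had -0.11 ± 0.04 and ATP5SL 0.13 ± 0.14, both uncalled.

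The subunits encoded in mitochondrial DNA were described from a list outside the name rule. All 6 tested had means below 0 and 4 were called lower, beside 16.4% of all tested genes, with a median of -0.50. The gene listed as COX2, here subunit II of cytochrome c oxidase by its description, had -0.73, -0.89, -0.86 and -0.96 and fell by 0.86 ± 0.09 (FC 1.82, adjusted p = 0.000195). COX3 had -0.68, -0.77, -0.66 and -0.94 and fell by 0.76 ± 0.12 (FC 1.70, adjusted p = 0.000441). ATP6 of the ATP synthase and ND1 of complex I fell by 0.50 ± 0.09 and 0.50 ± 0.13. CYTB and ND4 had -0.13 ± 0.21 and -0.23 ± 0.17 and were not called. Without lowess COX2 had -0.05, COX3 0.13, ATP6 0.30 and ND1 -0.22, none was called, and the median of the list turned to 0.03.

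Other genes of the pathway were taken from lists, and in limma 0 of them were called higher, also at an unadjusted p under 0.05. Among all tested genes 12.5% were called higher and 16.4% lower. Of 8 tested genes for the exchange of ATP and phosphate, 2 were called lower. CKMT2, the mitochondrial creatine kinase of striated muscle, had -0.9997, -1.13, -1.42 and -1.59 and fell by 1.29 ± 0.27 (FC 2.44, adjusted p = 0.000277). SLC25A4, the ADP/ATP carrier of heart and muscle, had -1.18, -1.20, -1.07 and -1.16 and fell by 1.15 ± 0.06 (FC 2.22, adjusted p = 4.4e-05). Both fell further than any subunit, and both kept the call without lowess, at -1.35 and -0.97, and with treat. The related carrier SLC25A5, found in most tissues, had -0.35 ± 0.24 and was not called.

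Of 12 genes for coenzyme Q synthesis and cytochrome c, 2 were called lower, near the 16.4% of all tested genes, and the median was -0.20. CYCS, cytochrome c itself, had -0.55, -0.45, -0.89 and -0.80 and fell by 0.67 ± 0.21 (FC 1.59, adjusted p = 0.00189). COQ2, which joins the ring and the tail of coenzyme Q, fell by 0.57 ± 0.18 (FC 1.49, adjusted p = 0.00264). Both were also called without lowess, at -0.46 and -0.49. Of 11 tested assembly factors of complexes III, IV and V, 3 were called lower, with a median of -0.13, but 1 was called without array 3, with normexp or without background correction, and 2 without array 2. LRPPRC, which stabilizes mitochondrial messenger RNA, had -0.59, -0.71, -0.998 and -0.90 and fell by 0.80 ± 0.18 (FC 1.74, adjusted p = 0.000718), and it kept the call without lowess at -0.74. FASTKD5, a factor of mitochondrial RNA processing, fell by 0.42 ± 0.12 (FC 1.34), and LYRM7, a chaperone of the Rieske protein, by 0.43 ± 0.28 (FC 1.34). Of 7 further assembly factors of complex I, TMEM126A alone was called, with a fall of 0.48 ± 0.21 and a list median of -0.10. Without lowess LYRM7 kept its call at -0.38, whereas FASTKD5 and TMEM126A did not.

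**Figure D5:**
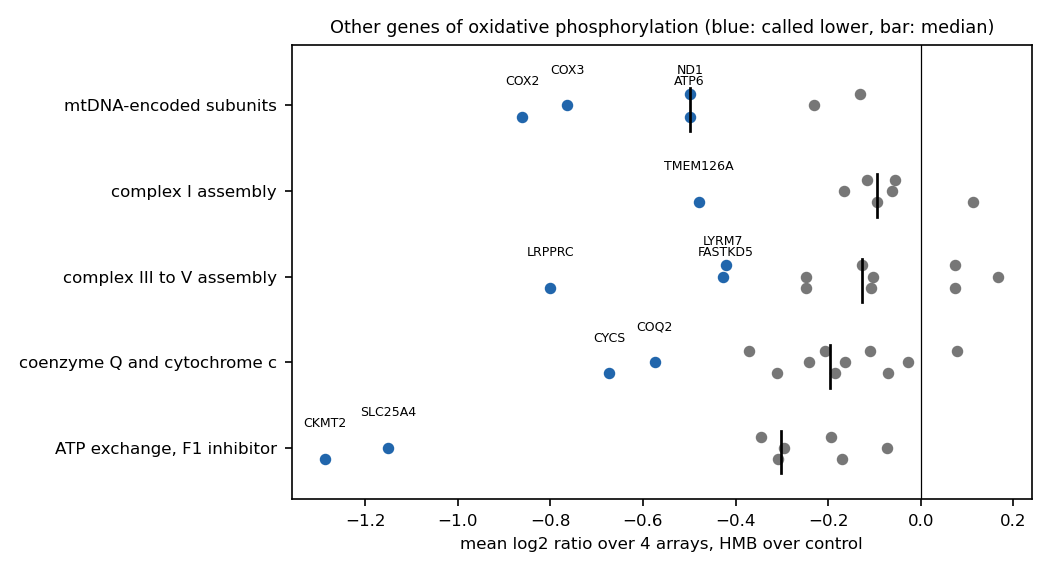
Mean log2 ratio over 4 arrays of each tested gene in 5 lists of oxidative phosphorylation genes outside the name rule, with called genes in blue and by name and the list median as a bar. CKMT2 at -1.29 and SLC25A4 at -1.15 lie furthest from 0, and no gene of these lists was called higher.

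Among the 22 called genes named above by rule or ID, NDUFS1, ATP5C1, COX6A2, COX8B, NDUFAF6 and ATP5S were also called lower without lowess, and NDUFA4L2 and COX7A1 higher. Scaled to spike-in RNA, all 20 genes called lower were again lower, as were 11016 of the 13978 tested genes, and NDUFA4L2 and COX7A1 were not called.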

How the data were processed

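RNA of HMB-treated ESC (Cy5) and control ESC (Cy3) was hybridised to 4 Agilent horse arrays. Per the file headers the authors extracted spot intensity and log10 ratio values with Feature Extraction 10.10.1.1, which subtracted background and applied a linear and lowess dye normalization. The deposited table of normalized values held the same log10 ratios (largest difference 3.96e-05).

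The deposited log10 ratios were converted to log2, controls and spots with a non-uniformity or outlier mark were dropped, and probes of a gene were averaged. Probes needed 1 channel well above background on all 4 arrays. Ratios were tested against 0 with limma 3.58.1 in R 4.3.3. On simulated data with 200 changed genes among 13978, 75.5% were recovered with 4 false calls. Alternatives changed the background correction, dye normalization, scaling, filter, probe summary, test and arrays, and included the t-test of the study's methods. The genes and lists were chosen with earlier results of these data known, so lists are given as counts and medians without a test. Named genes are the called ones, the core subunits, isoform sets, genes whose probes differ in call and the called genes of the pathway lists. Probe sequences come from the scanner files. The number of arrays limits the precision, and no dye-balanced estimate can be made. The values of 1 core subunit of complex I are not reported here, though it counts in the lists.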

Additional observations from a re-analysis of the deposited data

Results flagged for a closer look

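In 85 genes of the respiratory chain, examined for a single array far from the other 3, 4 genes had such an array, and chance gives about 1 in 20. NDUFAF6 had -0.82 on array 3 and between -0.45 and -0.40 on the others. SDHA had -0.53 on array 2 and between -0.36 and -0.33 on the others. COX7B had -0.42 on array 3, where the others had between -0.19 and -0.15. ATP5G2 had -0.34 on array 4, where the others had between -0.20 and -0.18. Without the array in question SDHA was not called, while NDUFAF6 was.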

How the results depend on the processing

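No paired analysis was possible because the ratio within an array already pairs its treated and control RNA, which leaves 1 group of 4 ratios and no further block. The number of subunits called lower was 2 with median centering without lowess, 44 with spike-in scaling, 0 with treat (2 at an unadjusted p under 0.05) and between 7 and 14 when 1 array was left out. Of all 13978 tested genes, 2171 were called lower with centering, 11016 with the spike-in scaling and 711 with treat. When 1 array was left out, between 2154 and 2311 genes were. With median centering the medians were -0.014 for all subunits, -0.017 for complex I, -0.0065 for III, -0.018 for IV and 0.053 for V, and the difference of COX6A2 and COX6A1 was -0.52. With the spike-in scaling they were -0.69, -0.69, -0.87 (complex II), -0.68, -0.69 and -0.62, and that difference was -0.52. The cause was not tested. When 1 array was left out, the medians ranged from -0.28 to -0.21 for all subunits, -0.24 to -0.14 for complex I, -0.40 to -0.21 for II, -0.34 to -0.26 for III, -0.39 to -0.26 for IV and -0.30 to -0.24 for V. COX6A2 minus COX6A1 ranged from -0.10 to 0.14 and COX7A1 minus COX7A2 from 0.85 to 1.00. Of 85 genes, the sign turned for 29 with centering and for 7 with the spike-in scaling. Those called in either setting compared were COX4I1 (0.49) and COX6A1 (0.024) with centering, and ATP5SL (-0.53), NDUFA7 (-0.45), NDUFS7 (-0.55), NDUFS8 (-0.46), NDUFA3 (-0.40) and ATP5D (-0.47) with the spike-in scaling, where NDUFA13 (-0.37) turned as well. Over all tested genes, 43.2% of calls were higher, against 57.1% with normexp, 62.1% without background correction, 4.4% with the spike-in scaling and 53.8% with treat. Of the 22 called genes, COX8B alone was called under all alternatives. The use of subunits identified by ID was chosen after seeing the data and left the medians of complexes I and V at -0.19 and -0.27.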
